A study of Sus scrofa with 6 samples.

Results

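Transcripts of 10 enzymes that carry long-chain fatty acids into mitochondria and oxidise them there were compared in the back muscle longissimus dorsi, between 3 UCP1 KI pigs and 3 WT pigs. The members were chosen by name, as a list of carnitine shuttle and beta-oxidation genes, and each symbol was paired with 1 Ensembl identifier. They are 10 of the 30476 identifiers in the count table, and all 10 were among the 13402 genes that passed the filter on low counts. UCP1 KI pigs express the uncoupling protein UCP1 from an adipocyte-specific knock-in, so that the muscle itself is not the tissue in which the transgene is meant to act, and WT pigs carry no knock-in. Each pig was sampled at 6 months of age and gave 1 library, so the spread between replicates is a spread between pigs. The promoter that drives UCP1, the sex of the pigs and their relatedness are not given in the sources used here. *UCP1* was found under no identifier, and the genotype was not checked against it.

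Long-chain acyl groups cross the mitochondrial membranes as esters of carnitine. CPT1 forms these acyl carnitines on the outer membrane, a step regarded as the main control point of fatty acid oxidation, and CPT2 turns them back into acyl-CoA inside the organelle. Each turn of the beta-oxidation spiral then removes a short unit from the chain by a dehydrogenation, a hydration, another dehydrogenation and a thiolytic cleavage, with separate enzymes for long, medium and short chains. Electrons from the first step reach the respiratory chain through ETF and its oxidoreductase ETFDH. Slow, oxidative muscle fibres are known to use this route more than fast, glycolytic fibres.

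None of the 10 genes passed the limits for a difference between the genotypes, although for *ACADM* and *HADHA* every UCP1 KI pig lay above every WT pig, as it did for 7.59% of all genes tested. A gene was called when edgeR's quasi-likelihood test gave an unadjusted p under 0.05 and the absolute log2 fold change was above 0.5. By these limits 0 of the 10 genes were called, 0 had an unadjusted p under 0.05 without the fold change limit, and 0 passed either limit set with DESeq2. Among all genes tested, 3.84% were called higher and 4.34% lower in UCP1 KI pigs. The smallest adjusted p among the members was 0.680, that of *HADHA*, from edgeR with Benjamini-Hochberg adjustment over all genes tested. Of the members 8 had a log2 fold change above 0, with a median over the 10 genes of 0.28, against -0.02 over all genes tested, of which 48.7% were above 0. This lean depended on WT replicate 2, without which 6 of the members were above 0 and their median was 0.08, with a median over all genes of -0.02. Values below are CPM, the counts divided by the TMM-scaled library total times 1000000, and levels are compared between pigs and not between genes, since transcript lengths were not used here.

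Total counts on genes ranged from 30220951 to 35066624 per pig, and the 10 members received between 25610 and 58798 counts, or 0.0730% to 0.182% of a library. The lowest of these values belonged to WT replicate 2. That library stood apart, with 56.5% of its counts in its 20 most abundant genes, against 39.0% to 44.8% in the other pigs, and with the lowest TMM factor, 0.781. Muscle identity was checked with *ACTA1*, *CKM* and *DES*, which encode skeletal actin, muscle creatine kinase and desmin, and *ACTA1* was between 30291 and 55937 CPM. The other 6 symbols of the muscle list were not paired with an identifier, among them the myosin heavy chains.

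*CPT1B* (ENSSSCG00000022364, chromosome 5, 155552 to 163536 in the RefSeq annotation of Sscrofa11.1) encodes the muscle form of carnitine palmitoyltransferase of the outer membrane. Its level was 134, 119 and 129 CPM in UCP1 KI replicates 1 to 3, and 251, 92.4 and 141 CPM in WT replicates 1 to 3. The UCP1 KI pigs were close together and lay inside the range of the WT pigs, of which replicate 1 was high. The means were 127 ± 7.35 CPM (SD, n = 3) and 161 ± 81.0 CPM (SD, n = 3), and the log2 fold change was -0.34, with a 95% interval from -1.20 to 0.51. It changed sign without WT replicate 1, to 0.13.

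*CPT2* (ENSSSCG00000003851, chromosome 6, 159038129 to 159061327) encodes the enzyme of the inner membrane that regenerates acyl-CoA. It varied most of the 10 genes between pigs, with 11.2, 25.9 and 24.2 CPM in UCP1 KI pigs, against 33.6, 4.31 and 19.5 CPM in WT pigs. The lowest pig, WT replicate 2, still had 118 counts of *CPT2*, and the highest, WT replicate 1, was 7.81-fold above it. With means of 20.4 ± 8.04 CPM (SD, n = 3) and 19.2 ± 14.7 CPM (SD, n = 3), the log2 fold change was 0.09. Its 95% interval, from -1.44 to 1.63, was the widest among the members, and includes a change of 2-fold in either direction. The sign turned without UCP1 KI replicate 2 (-0.14), UCP1 KI replicate 3 (-0.055) or WT replicate 2 (-0.38).

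The ratio of *CPT1B* to *CPT2* counts within a library does not depend on scaling. On the log2 scale it was 3.57, 2.20 and 2.41 in UCP1 KI pigs, against 2.90, 4.42 and 2.85 in WT pigs. The groups overlapped, and the difference of -0.66 was smaller than the SD of either group (two-sided exact permutation test, p = 0.5, adjusted p = 1 over 3 ratios, with 0.1 the smallest p that 3 pigs against 3 allow). With each pig left out the difference ran from -1.08 without UCP1 KI replicate 1 to -0.14 without WT replicate 2.

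**Figure D1:**
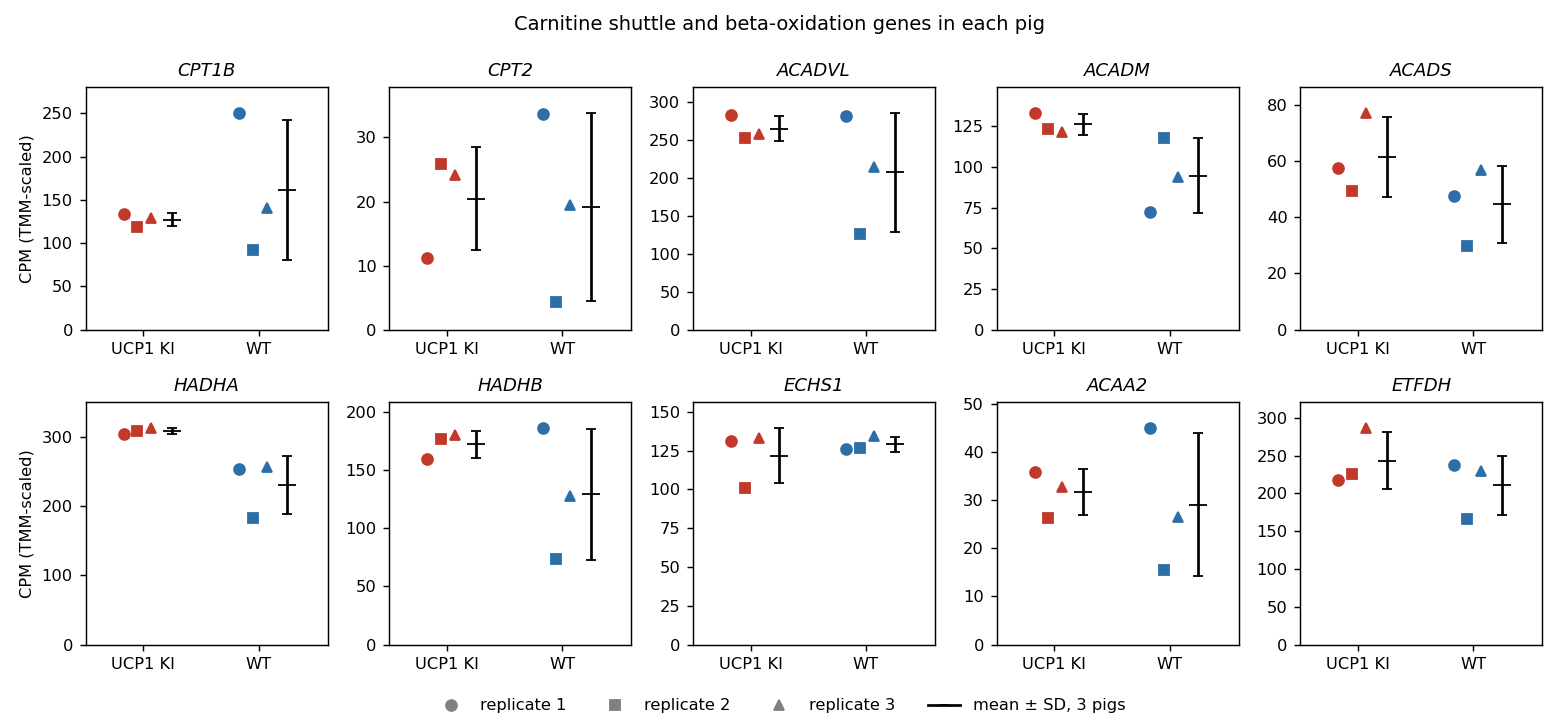
Level of each of the 10 genes in each pig, in TMM-scaled CPM, with the mean and SD of the 3 pigs of a group. For *ACADM* and *HADHA* every UCP1 KI pig lay above every WT pig, for the other genes the groups overlapped, and WT replicate 2 was the lowest pig for 8 of the genes.

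The 3 acyl-CoA dehydrogenases catalyse the first dehydrogenation, each on chains of a different length, and all had a log2 fold change above 0 that did not pass the limits. *ACADVL* (ENSSSCG00000017947, chromosome 12, 52573521 to 52581755) acts on the longest chains and is bound to the inner membrane. It was at 283, 253 and 258 CPM in UCP1 KI pigs, against 282, 126 and 214 CPM in WT pigs. WT replicate 1 was as high as the UCP1 KI pigs, and WT replicate 2 was low. The means of 265 ± 16.2 CPM (SD, n = 3) and 207 ± 78.1 CPM (SD, n = 3) gave a log2 fold change of 0.35, with a 95% interval from -0.40 to 1.11. Without WT replicate 2 it was 0.09. In the RefSeq annotation *ACADVL* shares 501 bases with *DLG4* and 69 bases with *DVL2*, and whether reads were counted by strand is not given in the sources used here. These neighbours were at 2.27 to 5.56 CPM and 6.61 to 13.2 CPM, well below *ACADVL* in each pig. Of the other members, *HADHB* shares 980 bases with the pseudogene *LOC106509870*, and *ETFDH* shares 51 bases with *C8H4orf46*. No level was obtained for either of these neighbours.

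*ACADM* (ENSSSCG00000003776, chromosome 6, 137541481 to 137575544) encodes the medium-chain dehydrogenase. It was measured at 133, 124 and 122 CPM in UCP1 KI pigs, against 72.3, 118 and 93.9 CPM in WT pigs. All 3 UCP1 KI pigs were above the 3 WT pigs, although UCP1 KI replicate 3 and WT replicate 2 were only a few CPM apart. The log2 fold change was 0.41 with a 95% interval from -0.17 to 1.0, and the exact permutation test gave p = 0.1, the smallest it can give here. Scaling by library size only raised the log2 fold change of *ACADM* to 0.70, where it passed both limits with an unadjusted p of 0.0299 from edgeR. The same scaling raised the median over all genes by 0.25. Without WT replicate 1, its lowest pig, *ACADM* was at 0.25.

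The short-chain dehydrogenase gene, *ACADS* (ENSSSCG00000009916, chromosome 14, 40642810 to 40656922), was at 57.5, 49.3 and 77.0 CPM in UCP1 KI pigs, against 47.5, 29.6 and 56.6 CPM in WT pigs. UCP1 KI replicate 2 was below WT replicate 3, so the groups overlapped. Its log2 fold change of 0.46, the highest of the 10 members, had a 95% interval from -0.26 to 1.18 and stayed from 0.23 to 0.67 on leaving out each pig.

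Balance between the long-chain and the medium-chain enzyme was nearly constant in UCP1 KI pigs and varied widely in WT pigs. The log2 ratio of *ACADVL* to *ACADM* counts was 1.09, 1.03 and 1.09 in UCP1 KI replicates 1 to 3 and 1.97, 0.10 and 1.19 in WT replicates 1 to 3. WT replicate 1 combined the lowest *ACADM* level with a high *ACADVL* level, and in WT replicate 2 this was turned around. The mean ratios, 1.07 ± 0.0308 (SD, n = 3) and 1.08 ± 0.938 (SD, n = 3), differed by -0.01 (two-sided exact permutation test, p = 1). Without WT replicate 1 they differed by 0.43, and without WT replicate 2 by -0.51. The difference in spread was not tested.

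*HADHA* and *HADHB* encode the alpha and beta subunits of the mitochondrial trifunctional protein, which together perform the last 3 steps on long chains. The genes are neighbours on chromosome 3, with *HADHB* at 112712894 to 112753121 and *HADHA* at 112753343 to 112797627, so that their annotated spans are 222 bases apart. *HADHA* (ENSSSCG00000008571) was at 304, 309.8 and 313 CPM in UCP1 KI pigs, against 255, 183 and 257 CPM in WT pigs, and the groups did not overlap. The UCP1 KI pigs were within a few CPM of each other, and WT replicate 2 was again the lowest. With means of 309 ± 4.60 CPM (SD, n = 3) and 231 ± 42.2 CPM (SD, n = 3), the log2 fold change of *HADHA* was 0.42, with a 95% interval from -0.16 to 0.99 (exact permutation test, p = 0.1). It stayed from 0.27 to 0.50 on leaving out each pig. Together with *ACADM*, *HADHA* brought the members without overlap and higher in UCP1 KI pigs to 2 of 10, against 7.59% of all genes tested, and 0 of 10 were lower in every UCP1 KI pig, against 7.69%.

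*HADHB* (ENSSSCG00000008569) was at 159, 177 and 179.9 CPM in UCP1 KI pigs, against 186, 73.4 and 127 CPM in WT pigs. WT replicate 1 was the highest pig and WT replicate 2 the lowest. The log2 fold change of 0.41 was close to that of *HADHA* but had a wider 95% interval, from -0.39 to 1.22. Without WT replicate 1, *HADHB* was at 0.77 and passed both limits, with an unadjusted p of 0.0403 from edgeR, whereas without WT replicate 2 it was at 0.13. The log2 ratio of *HADHA* to *HADHB* counts was 0.94, 0.81 and 0.80 in UCP1 KI pigs, against 0.45, 1.32 and 1.01 in WT pigs. The mean difference between the groups, -0.08, was smaller than the spread of the WT pigs (two-sided exact permutation test, p = 0.7). This difference was -0.32 without WT replicate 1 and 0.12 without WT replicate 2.

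*ECHS1* (ENSSSCG00000038086, chromosome 14, 141340320 to 141348870), the short-chain enoyl-CoA hydratase of the matrix, was the steadiest member. It was at 131, 101 and 133 CPM in UCP1 KI pigs, against 126, 126 and 135 CPM in WT pigs, with 1.33-fold between the highest and the lowest pig. Unlike for most members, the lowest value belonged to UCP1 KI replicate 2, and WT replicate 2 was in the middle. Its log2 fold change of -0.09 had a 95% interval from -0.61 to 0.44, which leaves out a change of 2-fold in either direction. Its sign turned with library size only, to 0.16, and became 0.02 when UCP1 KI replicate 2 was left out.

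*ACAA2* (ENSSSCG00000004510, chromosome 1, 99284467 to 99310759) encodes the thiolase of the matrix that cleaves medium and shorter chains. It was at 35.7, 26.3 and 32.7 CPM in UCP1 KI pigs, against 45.0, 15.5 and 26.6 CPM in WT pigs. As for *CPT1B*, *CPT2* and *HADHB*, WT replicates 1 and 2 were the highest and the lowest of all pigs. The log2 fold change of 0.12, with a 95% interval from -0.76 to 1.01, was -0.18 without WT replicate 2.

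*ETFDH* (ENSSSCG00000008877, chromosome 8, 47608499 to 47655889), which passes electrons from the dehydrogenases to ubiquinone, was at 218, 226 and 287 CPM in UCP1 KI pigs. In WT pigs it was at 237, 166 and 229.9 CPM. The high value of UCP1 KI replicate 3 and the low value of WT replicate 2 stood out, and the other pigs were close together. Its log2 fold change was 0.21, with a 95% interval from -0.40 to 0.81, and stayed from 0.06 to 0.29 on leaving out each pig.

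**Figure D2:**
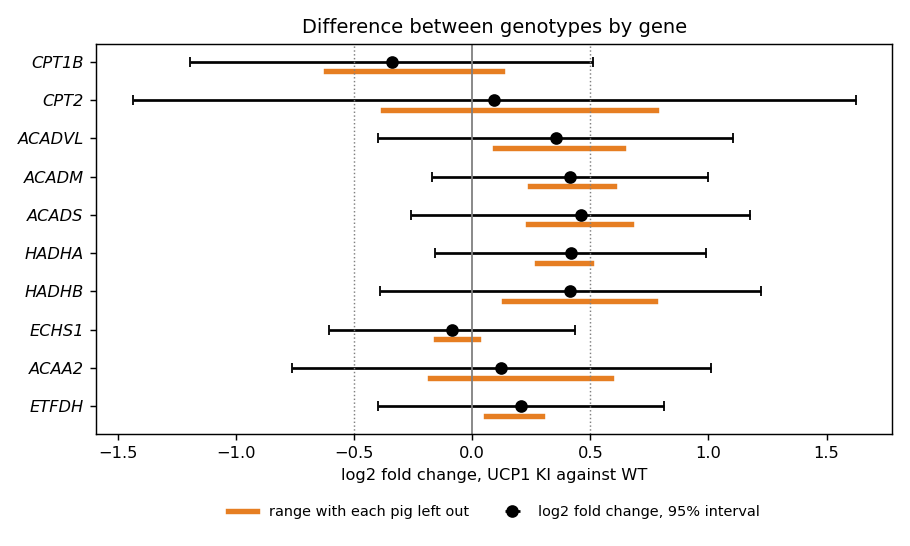
Log2 fold change of each gene, UCP1 KI against WT, from edgeR, with its 95% interval in black and the range of values with each pig left out in orange. Dotted lines mark the fold change limit of 0.5, and each of the 10 intervals includes 0.

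Spread within the groups was also compared. The coefficient of variation was smaller among UCP1 KI pigs than among WT pigs for 9 of the 10 genes, *ECHS1* being the exception, against 56.9% of 13398 genes in which it could be computed. Its median over the members was 10.6% in UCP1 KI pigs, against 34.3% in WT pigs, and over all genes these medians were 24.9% and 29.2%. For *HADHA* it was 1.49% in UCP1 KI pigs, against 18.2% in WT pigs, and for *ECHS1* 14.7% against 3.69%. The difference in spread was not tested. WT replicate 2 was the lowest of the 6 pigs for 8 members, where 19.5% of all genes tested had their lowest level in that pig. As the mean over the members of log2(CPM + 1), centred on each gene's mean, WT replicate 2 was at -0.66 and WT replicate 1 at 0.25, with the other pigs between -0.01 and 0.25. The summed level of the 10 genes was 1466, 1411 and 1557 CPM in UCP1 KI pigs, against 1536, 935 and 1299.9 CPM in WT pigs.

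Fibre type and mitochondrial genes are given beside these sums. Summed slow fibre genes (6 of 8 listed found, such as *TNNT1*, slow troponin T, and *MYL2*, slow myosin light chain) were at 12813, 10795 and 7415 CPM in UCP1 KI pigs, against 17898, 4336 and 5643 CPM in WT pigs. WT replicates 1 and 2 were thus the highest and the lowest pig for this list, as they were for *CPT1B*, *CPT2*, *HADHB* and *ACAA2*. The remaining members were highest in other pigs, and *ACADM* was lowest in WT replicate 1. All 6 slow fibre genes had a log2 fold change above 0, with a median of 0.16, and 0 were called. Summed fast fibre genes (6 of 10 found) were at 46140, 14324 and 46196 CPM in UCP1 KI pigs, against 28582, 72482 and 74596 CPM in WT pigs, and 0 of these genes were called. Of the 6 fast fibre genes 5 had a log2 fold change below 0, with a median over the list of -0.71. The part of fibre type in the spread of the members was not tested. In bulk muscle, fewer fibres of a type and less RNA per fibre cannot be told apart.

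The respiratory chain list, with 10 of 11 genes found, included subunits of complexes I to V and *CS*, citrate synthase. Its sum was 3879, 1977 and 3283 CPM in UCP1 KI pigs, against 3743, 2943 and 3814 CPM in WT pigs, with 0 genes called and a median log2 fold change of -0.08. The log2 ratio of summed member counts to summed respiratory chain counts was -1.40, -0.49 and -1.08 in UCP1 KI pigs, against -1.29, -1.65 and -1.55 in WT pigs. UCP1 KI replicate 2, with the lowest respiratory chain sum, had the highest ratio. The groups overlapped, and the difference between the means, 0.51, was 0.26 without that pig.

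**Figure D3:**
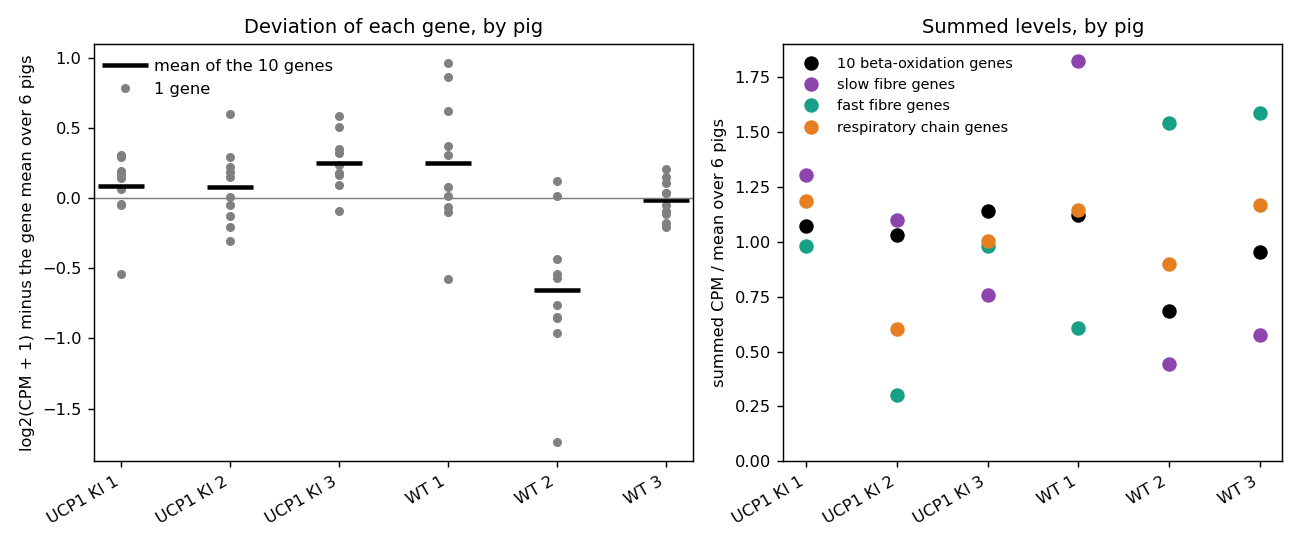
Left, the deviation of each of the 10 genes from its mean over the 6 pigs, as log2(CPM + 1), with the mean of the genes as a bar, which lies at -0.66 in WT replicate 2. Right, summed CPM of the 10 genes and of 3 other lists in each pig, divided by the mean over the pigs, where the slow fibre list is highest in WT replicate 1 and lowest in WT replicate 2.

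Markers of other cells in the muscle were measured in the same libraries. All 6 fibroblast genes were lower in UCP1 KI pigs. Of them 4, *COL1A1*, *COL1A2*, *COL3A1* and *LUM*, were called, and the sums were 235 to 434 CPM in UCP1 KI pigs, against 742 to 1187 CPM in WT pigs. WT replicate 2 had the highest sums of the fibroblast and of the adipocyte genes. The adipocyte sums were 134 to 161 CPM in UCP1 KI pigs, against 99.9 to 315 CPM in WT pigs, with 0 of 5 tested genes called, and *LEP* was at or near 0. In UCP1 KI and WT pigs, in this order, endothelial sums were 304 to 552 and 271 to 518 CPM, Schwann cell sums 52.2 to 61.6 and 51.6 to 66.1 CPM, leukocyte sums 86.0 to 152 and 84.3 to 123.1 CPM, and red blood cell sums 11.6 to 76.2 and 105 to 180.4 CPM. Among these lists *TEK* and *CD3E* were called higher and *HBM* lower in UCP1 KI pigs, and *LYZ* was at 0 in each pig. The part of these cells in the levels of the members was not tested.

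Other genes of fatty acid oxidation were taken from a list of 70 genes, of which 61 were found and 58 could be tested. Of these 3 were called higher, or 5.17%, and 2 lower, or 3.45%, close to the 3.84% and 4.34% of all genes. After Benjamini-Hochberg adjustment of edgeR's test 0 of the 58 genes had an adjusted p under 0.05, and 5 had an unadjusted p under 0.05. The median log2 fold change over the list was -0.02.

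*ACOT8*, a peroxisomal thioesterase that releases fatty acids from CoA, rose by 0.71 on the log2 scale (standard error 0.21, adjusted p = 0.583 from edgeR). It was at 15.5, 15.9 and 17.6 CPM in UCP1 KI pigs, against 10.2, 9.64 and 10.04 CPM in WT pigs, with little spread in either group. *ACOT8* was called in each of the 12 alternative fits and stayed from 0.66 to 0.75 on leaving out each pig. The other thioesterases were not called with edgeR on all pigs, and ranged from -0.23 for *ACOT13* to 1.49 for *ACOT7*, whose highest pig, UCP1 KI replicate 2, was at 4.65 CPM and whose lowest, UCP1 KI replicate 3, was at 0.635 CPM. *ACOT7* was called in 4 of the 12 alternative fits, which were those with DESeq2, with library size only, with no filter on low counts and without UCP1 KI replicate 3.

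*HADH*, which encodes the 3-hydroxyacyl-CoA dehydrogenase for medium and short chains, was called lower, in contrast to the direction of *HADHA*. Its levels were 29.9, 28.6 and 30.7 CPM in UCP1 KI pigs, against 27.4, 60.3 and 93.3 CPM in WT pigs. WT replicate 1 was below every UCP1 KI pig, so the groups overlapped, and the log2 fold change was -1.02. With 1 pig left out, *HADH* passed both limits in 1 of 6 fits, that without WT replicate 1 (-1.37). In 4 of the fits that lost the call the fold change stayed between -1.04 and -0.995, and without WT replicate 3 it was -0.56. It also missed the limits with library size only.

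*ACAD11*, an acyl-CoA dehydrogenase of very long chains, was at 7.30, 10.1 and 9.79 CPM in UCP1 KI pigs, against 6.45, 2.81 and 5.54 CPM in WT pigs, with a fold change on the log2 scale of 0.88. *MMUT*, the mutase that handles the end product of odd-numbered chains, was at 12.9, 17.1 and 18.8 CPM against 10.4, 6.02 and 12.3 CPM in WT pigs, with a fold change on the log2 scale of 0.76. Neither gene overlapped between the groups. *ACAD11* lost its call when replicate 2 (0.78) or 3 (0.82) of the UCP1 KI pigs, or replicate 2 (0.60) or 3 (0.97) of the WT pigs, was left out. *MMUT* lost its call without replicate 2 (0.71) or 3 (0.65) of the UCP1 KI pigs, and without replicate 1 (0.82) or 2 (0.52) of the WT pigs.

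**Figure D4:**
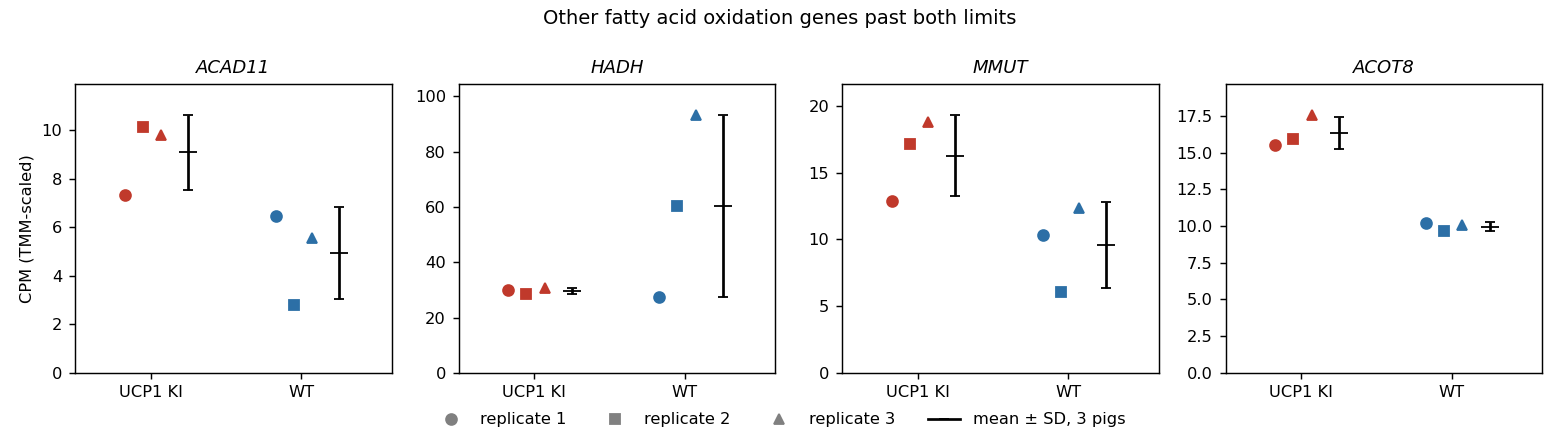
Levels in each pig of 4 other fatty acid oxidation genes past both limits, in TMM-scaled CPM, with the mean and SD of the 3 pigs of a group. *ACOT8* shows little spread in either group, and for *HADH* the WT pigs are far apart, with WT replicate 1 beside the UCP1 KI pigs.

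With edgeR on all pigs, the groups of fatty acid activation, ketone bodies and control held no called gene. Among 13 tested genes of fatty acid activation and the carnitine system, the log2 fold changes ran from -0.86 for *ACSL6*, an acyl-CoA synthetase at 0.112 to 0.949 CPM, to 1.14 for *CROT*, the peroxisomal carnitine octanoyltransferase, which was at 15.5 CPM in UCP1 KI replicate 1 and 2.19 to 4.99 CPM in the other pigs. *CROT* was called in 5 of the 12 alternative fits, among them DESeq2, library size only and the replicate block. *CPT1A*, the liver form of the outer membrane enzyme, was at 29.6, 27.8 and 24.3 CPM in UCP1 KI pigs, against 43.5, 34.0 and 19.1 CPM in WT pigs. *SLC25A20*, the translocase that exchanges acyl carnitines for carnitine across the inner membrane, was at 49.4, 42.4 and 65.1 CPM against 37.0, 32.7 and 44.1 CPM, a log2 fold change of 0.46. Its groups overlapped.

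Among the auxiliary enzymes *DECR1*, the dienoyl-CoA reductase for unsaturated chains, had the lowest value, -0.39, with 4.59 CPM in UCP1 KI replicate 1 and 21.0 to 38.8 CPM in the other pigs. The 3 tested genes of ketone body metabolism lay between -0.50 for *BDH1* and -0.05 for *OXCT1*. *EHHADH*, the bifunctional enzyme of peroxisomes, had the highest value of the 10 tested peroxisomal genes, 0.26. Of 12 genes that control the pathway, values ran from -1.04 for *ACACA*, which makes the CPT1 inhibitor malonyl-CoA, to 0.62 for *ESRRA*, a nuclear receptor of oxidative genes. *PDK4*, a kinase that restrains pyruvate oxidation, was at 985, 879.8 and 1021 CPM in UCP1 KI pigs, against 847, 1068 and 1420.3 CPM in WT pigs, with overlapping groups.

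Of the 13402 genes, 5678 outside the members had a symbol and a mean of at least 10 CPM. These were ranked by their likeness to the mean profile of the members over the 6 pigs. The measure was the root mean square difference of centred log2(CPM + 1). The 5 nearest were *APOOL*, *KANSL1*, *MKRN2*, *AMOTL1* and *RNPS1*, with differences of 0.0586 to 0.0954. *APOOL*, a mitochondrial protein of cristae organisation, was at 12.5, 13.6 and 15.01 CPM in UCP1 KI pigs, against 14.2, 7.63 and 11.2 CPM in WT pigs, again lowest in WT replicate 2. In that pig *KANSL1*, *MKRN2*, *AMOTL1* and *RNPS1* were also lowest, at 7.26, 7.19, 21.5 and 126 CPM. Whether the 5 genes share a function with the members was not tested. Of the members themselves, *ACADVL* (0.134) and *ETFDH* (0.137) were nearest to their mean profile, and *CPT2* (0.641) and *ACADM* (0.481) were farthest.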

How the data were processed

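RNA from the longissimus dorsi of 3 UCP1 KI and 3 WT pigs was sequenced as paired-end mRNA libraries. Per the labels, the submitters' processing notes name Trimmomatic 0.36, HISAT2 2.0, StringTie 1.3.3b and the build Sscrofa11.1. Whole-number counts for each Ensembl gene were deposited by the authors without normalization, and the counting program is not given in the sources used here. Genes kept by filterByExpr were scaled with TMM factors and tested in R 4.3.3 with edgeR 4.0.16, genotype being the only term, by the two-sided quasi-likelihood F test with Benjamini-Hochberg adjustment. Intervals at 95% come from the same fit. The limits are those of the study's methods. Exact permutation tests enumerated the 20 assignments of pigs. Alternatives included DESeq2 1.42.0, other scalings and filters, a replicate block and each pig left out. The procedure was tested on simulated counts. There 8 of 47 genes with a true absolute log2 change of 0.5 were called, and 31 of 49 with a change of 1. After Benjamini-Hochberg adjustment 0 of either had an adjusted p under 0.05, so true changes of the size seen in the members would often be missed.

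Symbols came from a table of Ensembl names and positions from RefSeq, matched by symbol. Members and gene lists were chosen with earlier results of these data known. Named genes are all members, each called gene of the other pathway list, the highest and lowest of each of its groups, and 5 genes of like profile. *CPT1A*, *SLC25A20*, *PDK4* and the marker genes were named after their values were seen. Values of some list genes are not reported here, although the counts over the list include them.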

Additional observations from a re-analysis of the deposited data

How the results depend on the processing

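Of the 10 members, 1 was called with library size only (*ACADM*) and 0 to 1 with each pig left out (*HADHB*, without WT replicate 1), and 0 in the other fits. The log2 fold change of *ECHS1* was 0.16 with library size only. With each pig left out it ranged from -0.62 to 0.13 for *CPT1B*, from -0.38 to 0.78 for *CPT2*, from -0.15 to 0.0221 for *ECHS1* and from -0.18 to 0.59 for *ACAA2*, and the other 6 members kept their direction in all fits. The median over the members ran from 0.08 without WT replicate 2 to 0.50 without WT replicate 1. Other pathway genes called numbered 8 with DESeq2 (*CROT*, *ACAD10* and *ACOT7* added), 0 after Benjamini-Hochberg adjustment, and 3 to 7 with each pig left out (3 without UCP1 KI replicate 2 or WT replicate 2). The cause of these shifts was not tested. All genes called numbered 1097, but 678 when UCP1 KI replicate 2 and 718 when WT replicate 2 was left out. With library size only 929 of 1124 calls were higher, against 515 of 1097. An adjusted p under 0.05 was reached by 0 genes with edgeR and 127 with DESeq2.

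Deviations of same-numbered pigs from their group means correlated at 0.00, 0.09 and 0.28, the last, of replicates 3, being the highest of all pairs. UCP1 KI replicates 1 and 2 correlated best with a WT pig of another number (0.13 and 0.10). With 3 pigs in each group these values cannot decide whether the numbers pair the pigs. With the replicate block 0 members were called, their median was 0.42, and 5 other pathway genes were called, without *ACAD11* and *HADH* and with *CROT* and *ACAD10*. The lowest count of a member in any pig was 118.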
